A study of Mus musculus with 6 samples.

Results

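The 10 genes described here encode proteins of gap and adherens junctions. They are the connexins Gja1, Gjb2 and Gjb6, the cadherins Cdh2 and Cdh4, and the catenins Ctnnb1, Ctnna1, Ctnna2, Ctnnd1 and Ctnnd2. They were taken by symbol from the 47643 genes of each deposited table, and all 10 were present. RNA came from GFP-positive ependymal cells that had been sorted from the adult mouse ventricular-subventricular zone 2 days after tamoxifen. There were 3 samples of the Ccn1 conditional knockout (cKO), in which tamoxifen also deleted Ccn1 in ependymal cells, and 3 of the control, which was likewise sorted on GFP. The GFP gate was set by hand against wild-type cells. The Cre driver, the full genotype of the control, the number of mice per sample and their exact age and sex were not stated. The labels call the material cytoplasmic RNA in one field and total RNA in another.

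Ependymal cells form an epithelium of multiciliated cells between the ventricle and the neural stem cell niche. Connexins assemble into channels that, docked between neighbouring cells, make gap junctions for ions and small molecules. Adherens junctions are built from cadherins, which bind their like on the next cell. Inside the cell the cadherin tail holds beta-catenin, alpha-catenin links that complex to actin, and the delta-catenins bind the membrane-near part of the tail and slow the removal of the cadherin. Beta-catenin is also the transcriptional effector of canonical WNT signalling. Ependymal cells are known for N-cadherin and for the connexin encoded by Gja1.

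The libraries held 13401499 to 15689579 estimated counts each. Ccn1, the deleted gene (listed as Cyr61), stood at 18.7, 11.6 and 23.7 TPM in the cKO libraries and at 63.6, 98.7 and 93.5 TPM in the controls, so each library went with its label. The log2 difference was -2.22 ± 0.38 (SE), with an unadjusted p of 0.000415 and an adjusted p of 0.999992 by edgeR. DESeq2, which called Ccn1, gave an adjusted p of 4.15e-06. TPM, a transcript abundance, is scaled for transcript length and library size, so it can be compared between genes. Ependymal markers were abundant in all 6 libraries, with 12 of 12 above 3 counts in each. At low levels the libraries were patchy: 91.3% of the 4855 genes averaging 10 to 100 counts had at least 1 library at 3 counts or fewer, against 35.4% of the 6524 genes averaging 100 to 1000 counts. Nothing in the labels says whether samples came from separate animals, so p-values measure the spread between these samples only.

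Among the connexins, Gja1 was the predominant gene in every library. Gja1 encodes connexin 43, the main gap junction protein of astrocytes and ependyma, and stood at 688, 646 and 725 TPM in the cKO libraries and at 704, 759 and 693 TPM in the controls. The 2 groups overlapped, and the mean over all 6 libraries was 702 ± 37.9 TPM (SD, n = 6), rank 199 of the 19796 genes with a TPM above 0. Its coefficient of variation between libraries was 5.40%, and 151 of the 159 genes averaging at least 10000 counts varied more. In tissue-derived bulk samples like these, fewer cells that use a gene and less RNA per cell cannot be told apart. Gja1 lies on chromosome 10 from 56377330 to 56402513 on the plus strand of GRCm38, by the GENCODE M21 annotation.

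The other connexin members were at the edge of detection. Gjb6 encodes connexin 30, which astrocytes carry beside the Gja1 product, and had 154 estimated counts in cKO 2, 109 in control 2 and 0 in the other 4 libraries. That corresponds to 7.13 TPM in cKO 2 and 5.03 TPM in control 2. Gjb2 encodes connexin 26, known from the cochlea and the meninges, and had 60 counts (2.23 TPM) in cKO 1 and 0 in the other 5. Each detection was thus confined to 1 library of a group. A count of 0 allows up to 3 counts by counting error alone. In CPM (counts scaled to library size) that is 0.191 to 0.224 by the total count of each library. Gjb2 (57098600 to 57104702) and Gjb6 (57123303 to 57133611) are neighbours on the minus strand of chromosome 14, 18600 bases apart. No library had counts of both, but with so few detections whether they go together cannot be judged.

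Over the whole connexin family, 20 genes were listed, of which 9 had 0 counts in all 6 libraries and 3 were above 3 counts in all 6, namely Gja1, Gjc1 and Gjc3. Among those at 0 in all 6 were the endothelial Gja4 and the neuronal Gjd2. Gjc1, which encodes connexin 45, was next after Gja1, with 0.39, 3.89 and 6.73 TPM in the cKO and 40.2, 9.52 and 8.69 TPM in the control. All 3 cKO values lay below all 3 controls, and the control 1 library was the highest by far. The edgeR log2 difference was -2.48 ± 1.32 (SE, adjusted p = 0.999992), and it was -1.29 without control 1. Gjc3, a glial connexin, had 173 counts in cKO 1 and 5 to 25 in the others.

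**Figure D1:**
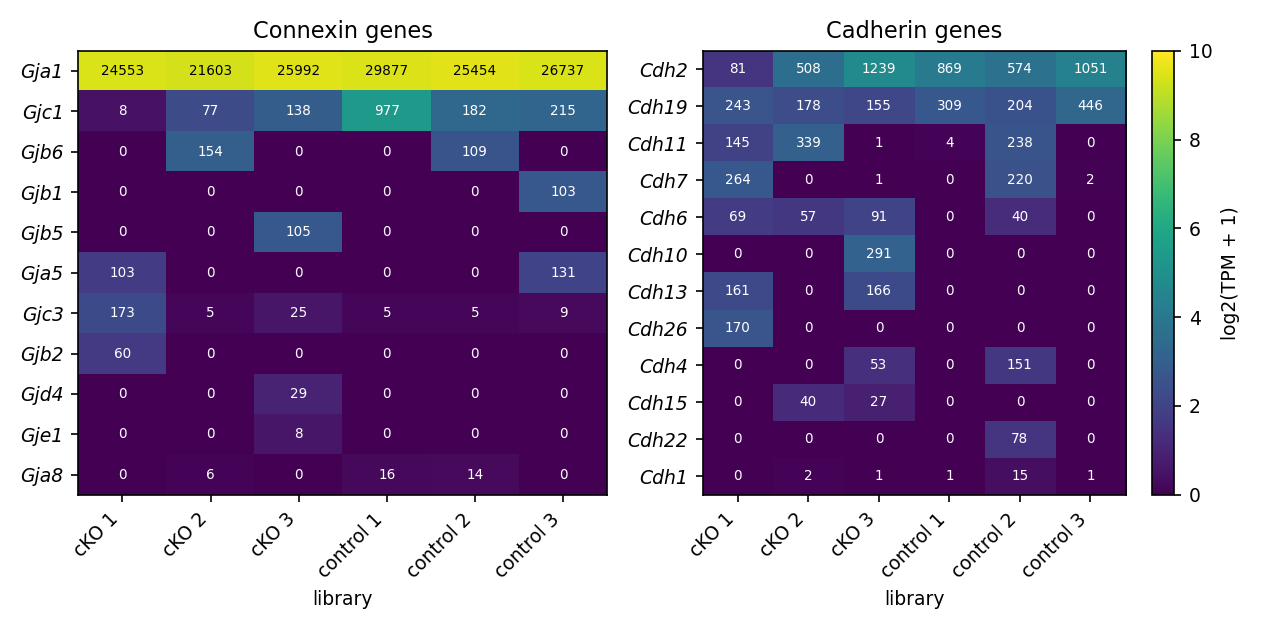
Connexin genes (left) and cadherin genes (right) with more than 3 counts in at least 1 library, by library. Colour is log2(TPM + 1) and the printed numbers are estimated counts. Gja1 fills its row in every library, while most other rows hold counts in 1 to 3 libraries, as Gjb6 does with 154 and 109.

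Among the cadherins, Cdh2 led in 5 of 6 libraries. Cdh2 encodes N-cadherin, the classical cadherin of neural epithelia, and stood at 1.83, 11.1 and 26.8 TPM in the cKO and at 16.5, 12.8 and 20.3 TPM in the control. The groups overlapped because the cKO held both the lowest and the highest library. In cKO 1 Cdh2 had 81 counts, and Cdh7 at 5.77 TPM led instead. Cdh4, which encodes R-cadherin, had 53 counts (1.62 TPM) in cKO 3, 151 (2.08 TPM) in control 2 and 0 in the other 4 libraries. Of 20 cadherin genes listed, 6 were at 0 in all libraries (Cdh5, Cdh8, Cdh9, Cdh18, Cdh20 and Cdh24) and 2 were above 3 counts in all, Cdh2 and Cdh19. Cdh5 is the endothelial cadherin. Cdh19 ranged from 3.36 to 8.99 TPM over the 6 libraries. Cdh2 took 6.80% of the summed TPM of the 20 cadherins in cKO 1 and 38.8% to 74.0% in the other 5 libraries. Cdh2 lies on chromosome 18 from 16588877 to 16809246 (minus strand) and Cdh4 on chromosome 2 from 179442431 to 179899373 (plus strand).

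Of the alpha-catenin members Ctnna1 and Ctnna2, Ctnna1 gave almost all of the message. Ctnna1 encodes the epithelial form, alpha-E-catenin, and stood at 103, 118 and 118 TPM in the cKO and at 66.1, 93.8 and 164 TPM in the control. The 3 cKO values lay inside the range of the controls, which held both the lowest and the highest library. Ctnna2, the neuronal form, stood at 3.38, 0.0508 and 0.780 TPM in the cKO and at 0.366, 1.93 and 4.53 TPM in the control. Its highest count was 231, in control 3, and its lowest was 2, in cKO 2. Ctnna3, an alpha-catenin gene outside the members, had 20 counts in cKO 1, 155 (4.16 TPM) in control 2 and 0 in the others. It is not counted in the share of Ctnna1 given below. Ctnna1 lies on chromosome 18 from 35118859 to 35254779 (plus strand), and Ctnna2 on chromosome 6 from 76881637 to 77979699 (minus strand).

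Ctnnb1, the beta-catenin gene, stood at 107, 63.98 and 35.3 TPM in the cKO and at 52.1, 68.5 and 48.2 TPM in the control. The cKO libraries spanned the whole range, with cKO 1 the highest and cKO 3 the lowest of the 6. Jup, which encodes plakoglobin, the relative that can take the place of beta-catenin at the membrane, was lower, and Ctnnb1 made up 77.8% to 95.8% of the summed TPM of the pair. The ratio of Ctnna1 to Ctnnb1 TPM ran from 0.961 in cKO 1 to 3.41 in control 3. Ctnnb1 lies on chromosome 9 from 120929216 to 120960507 on the plus strand. There it shares 759 exonic bases with Ulk4 on the opposite strand, a gene with 793 to 1151 counts per library, and 13.2% of the 31-base words of its transcripts occur in Ulk4 transcripts too. Whether strand was used in the assignment of reads was not stated.

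The delta-catenins were low and patchy. Ctnnd1 encodes p120-catenin, the broadly expressed form, and had 203, 304 and 11 counts in the cKO and 3, 20 and 554 in the control. In TPM that was 3.38, 5.39 and 0.182 against 0.0419, 0.354 and 8.44. Ctnnd2, the neural form, had 43, 283 and 0 counts in the cKO and 0, 737 and 562 in the control, or 0.605, 4.24 and 0 TPM against 0, 11.02 and 7.31 TPM. Both genes were absent or nearly so in cKO 3 and control 1. Control 2 held Ctnnd2 with little Ctnnd1, and cKO 1 mostly Ctnnd1. Ctnnd1 lies on chromosome 2 from 84600071 to 84650765 (minus strand), and 58.6% of its 31-base words also occur in Gm28635, an overlapping protein-coding gene model on the same strand, which is listed at 0 counts in all 6 libraries. How reads were divided between these models was not tested. Ctnnd2 lies on chromosome 15 from 30172593 to 31029341 (plus strand). Between the members themselves shared words were few, with 5 between Ctnna1 and Ctnna2, 2 between Gja1 and Ctnna2 and 0 for the other pairs.

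**Figure D2:**
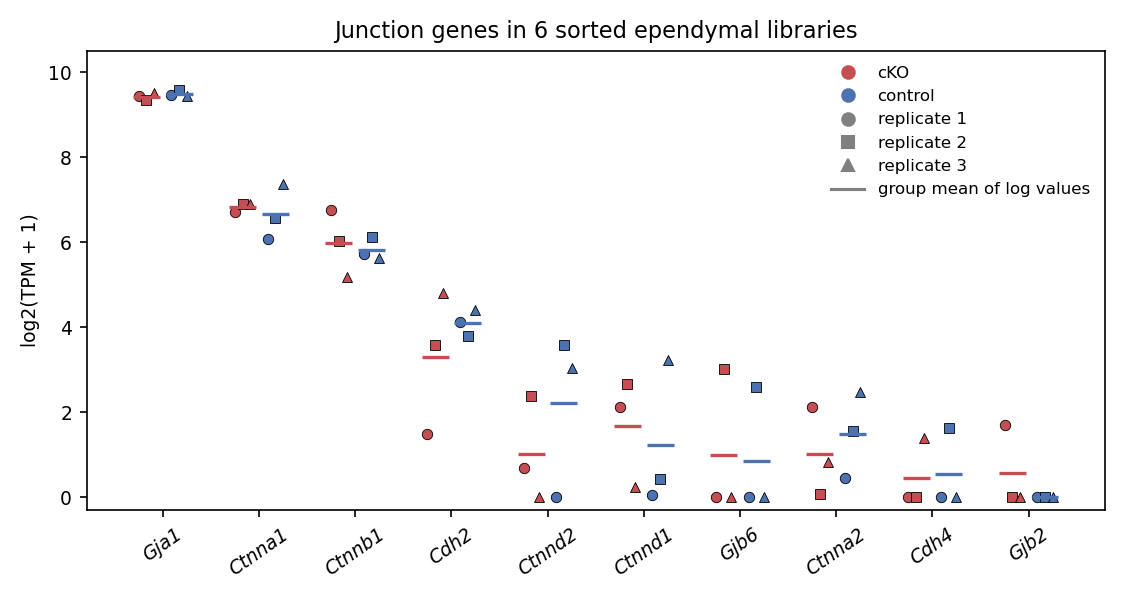
Level of the 10 junction genes as log2(TPM + 1), 1 point per library (shape gives the replicate number, colour the genotype), with bars at the group means of the log values. Gja1 points are tight at 646 to 759 TPM, and from Ctnnd2 rightward each gene has at least 1 library below 1 TPM.

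By mean TPM the order of levels was Gja1 (702), Ctnna1 (110), Ctnnb1 (62.5), Cdh2 (14.9), Ctnnd2 (3.86), Ctnnd1 (2.96), Gjb6 (2.03), Ctnna2 (1.84), Cdh4 (0.617) and Gjb2 (0.372). Gja1 was above Ctnna1 in 6 of 6 libraries, with a ratio of means of 6.36 and ranges that did not overlap. Ctnnb1 was above Cdh2 in 6 of 6, with a ratio of 4.202 and ranges that did not overlap either. Cdh2 was above Ctnnd2 in 6 of 6, with overlapping ranges. Each of these 3 steps had an exact two-sided sign-flip permutation p of 0.0313, the smallest that 6 libraries allow. After Benjamini-Hochberg adjustment over the 9 neighbouring pairs it was 0.0938, so 0 of 9 steps passed 0.05. With that smallest p and 9 pairs, no step could pass on its own. The order came from the mean TPM of the same libraries, so the direction of each step was set by the values tested. Ctnna1 was above Ctnnb1 in 5 of 6 libraries (exact permutation p = 0.0625, adjusted 0.141), with cKO 1 the exception. From Ctnnd2 to Gjb2 the neighbours did not differ beyond their spread (exact permutation p from 0.344 to 1), and Ctnnd1 was above Ctnnd2 in 5 of 6 libraries although its mean was lower. Gja1 thus stood far above Cdh2 and Cdh4 in TPM, at 25.5 times their sum in cKO 3 and 376 times in cKO 1. The ratio in cKO 1 rests on 81 counts of Cdh2. All 20 listed cadherins together summed to 26.9 TPM in cKO 1, beside 688 TPM of Gja1. In cKO 3 they summed to 47.4 TPM, beside 725 TPM of Gja1.

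The share of 1 paralog among its relatives gave the choice of isoform in each library. Gja1 made up 98.7%, 98.3% and 98.0% of the summed TPM of all 20 connexins in the cKO and 94.6%, 98.1% and 97.5% in the control (exact two-sided permutation p = 0.2, adjusted 0.8 over 4 shares). Control 1, with its Gjc1, was the lowest. Cdh2 made up 100% of Cdh2 plus Cdh4 in 4 libraries, 94.3% in cKO 3 and 86.0% in control 2 (exact permutation p = 1). Ctnna1 made up 96.8% to 99.96% of Ctnna1 plus Ctnna2 (exact permutation p = 0.8). Ctnnd1 made up 84.8%, 56.0% and 100% of Ctnnd1 plus Ctnnd2 in the cKO and 100%, 3.11% and 53.6% in the control (exact permutation p = 0.5). The summed TPM of the Ctnnd1 and Ctnnd2 pair was as low as 0.0419, in control 1, so that share rests on 3 counts there. In cKO 3 it rests on 11 counts of Ctnnd1 (0.182 TPM) and 0 of Ctnnd2, so both values of 100% are near the floor. With 3 samples a group 0.1 is the smallest exact p, so 0 of the 4 shares could have passed 0.05.

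**Figure D3:**
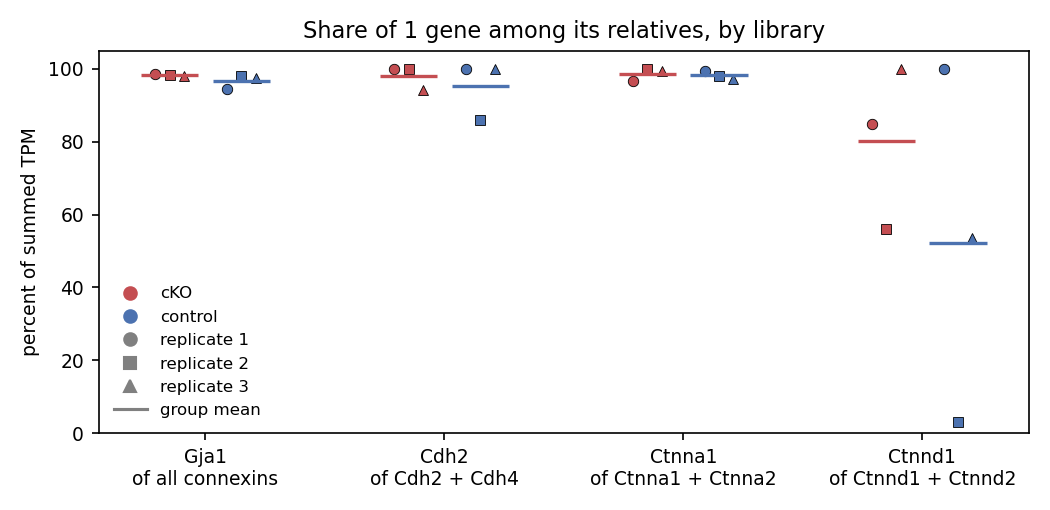
Percent of summed TPM held by Gja1 among 20 connexins, Cdh2 among Cdh2 and Cdh4, Ctnna1 among Ctnna1 and Ctnna2, and Ctnnd1 among Ctnnd1 and Ctnnd2. Values are by library, with bars at group means. The first 3 shares stay between 86.0% and 100%, and the Ctnnd1 share runs from 3.11% to 100%.

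The comparison of cKO with control asks whether loss of Ccn1 from ependymal cells goes with a change in their junction genes. Of the 10 members, 7 had enough counts to be tested, and Gjb2, Gjb6 and Cdh4 did not. The edgeR quasi-likelihood test called 0 of the 7 at an adjusted p of 0.05, where it called 0% of all 11574 genes tested, and 0 of the 7 had an unadjusted p under 0.05, where 2.75% of all genes did (1.43% higher and 1.31% lower in the cKO). DESeq2, which called 1.63% of all genes, and limma-voom also called 0 members, with 0 at an unadjusted p under 0.05. In CPM 0 of the 7 tested members had groups that did not overlap, against 9.62% of all genes tested (4.99% higher and 4.62% lower in the cKO). Over 7 genes, 0 cannot be told from that share. The 3 untested members had a library at 0 counts in each group, so their groups had to overlap. The log2 difference was above 0 for 3 of the 7 and below 0 for 4, and its median was -0.066, beside 5823 higher and 5751 lower and a median of 0.0044 over all genes tested.

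What the data bound differs strongly between members. For Gja1 the log2 difference was -0.066 ± 0.12 (SE), with a 95% interval from -0.34 to 0.21, which is 0.788 to 1.16 times the control level. For Ctnna1 it was 0.086 ± 0.29, with an interval from 0.666 to 1.69 times, and for Ctnnb1 0.30 ± 0.39, from 0.658 to 2.29 times. Without cKO 1, the library with the most Ctnnb1, the Ctnnb1 difference was -0.19. For Cdh2 the difference was -0.31 ± 0.83, from 0.213 to 3.07 times, and 0.22 without cKO 1, the library with the least Cdh2. The intervals of the others were too wide to bound a change. They ran on the log2 scale from -5.28 to 3.86 for Ctnna2, from -4.50 to 4.58 for Ctnnd1 and from -7.33 to 3.54 for Ctnnd2. Each of the 7 had an adjusted p of 0.999992 by edgeR, and the exact permutation p of the 10 members ran from 0.6 to 1. Without 1 library at a time the sign also turned for Ctnna1, Ctnna2 and Ctnnd1.

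**Figure D4:**
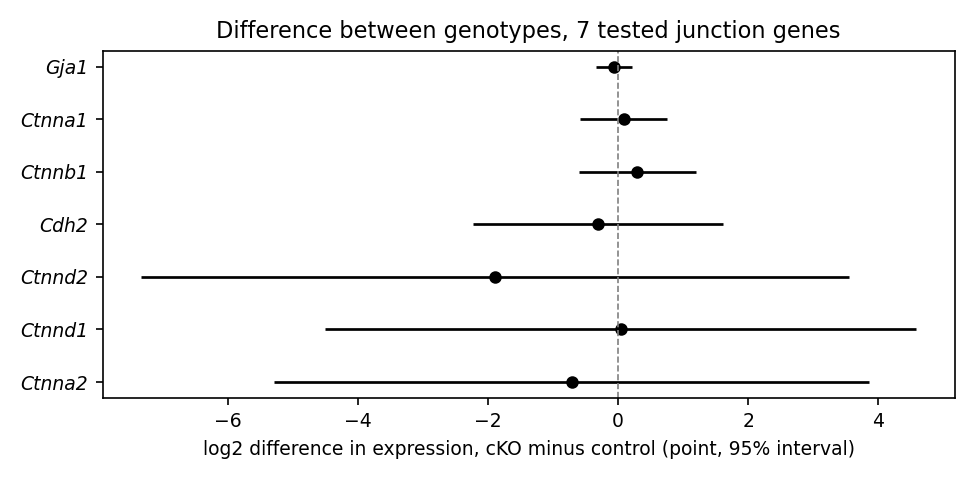
The log2 difference between genotypes (cKO minus control) of the 7 tested members, with 95% intervals from the edgeR fit. The interval of Gja1 is the narrowest, from -0.34 to 0.21, and all 7 intervals contain 0.

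The wider junction machinery was described by 10 lists, with 160 genes in the files and 91 tested. edgeR called 0 of the 91, DESeq2 0 of the 98 to which it gave an adjusted p, and limma-voom 0 of 91. At an unadjusted p under 0.05 DESeq2 had 11 of the 115 it fitted, where 6% of all 17858 genes with a p passed, and limma-voom had 7 of 91, where 5.25% of all genes did. By edgeR 1 gene, Arvcf, had an unadjusted p under 0.05, where 2.75% of all genes did. Groups did not overlap for 7 genes higher in the cKO and 6 lower, 14.3% of the 91, beside 9.62% of all genes. The lists were chosen with earlier results of these data known, so these shares are no evidence of an excess in junction genes. The median log2 difference was -0.13, beside 0.0044 for all genes.

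Arvcf encodes a catenin of the p120 family that binds the cadherin tail. It stood at 11.5, 22.3 and 13.3 TPM in the cKO and at 29.9, 38.3 and 28.9 TPM in the control, and the groups did not overlap. The log2 difference was -1.003 ± 0.34 (SE, unadjusted p = 0.019 and adjusted p = 0.999992 by edgeR), and the exact permutation p was 0.1. Arvcf exceeded both delta-catenin members in each library. Of the 6 tested genes in the list of further catenins and plakophilins, 1 was higher and 5 lower, and 0 passed.

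Of the 13 tested tight junction genes 8 were higher and 5 lower, and 0 passed. Jam3, an adhesion molecule of the immunoglobulin family, led the list at 81.8, 111 and 95.7 TPM in the cKO and 70.2, 94.8 and 96.5 TPM in the control. Occludin (Ocln), a tight junction membrane protein, ranged from 26.2 to 68.4 TPM, with overlapping groups. Cldn1, Cldn3 and Cldn5 were at 0 in all 6 libraries. Of the 16 tested nectin, afadin and actin linker genes 6 were higher and 10 lower, and 0 passed. Nectin3 (listed as Pvrl3), a nectin of adherens junctions, had 166, 293 and 1 counts in the cKO and 365, 1018 and 1152 in the control. Its groups did not overlap in CPM and did overlap in TPM. The scaffold gene Magi2 had 0, 39 and 0 counts against 490, 472 and 76.

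Of the 16 tested apical polarity genes 8 were higher and 8 lower, and 0 passed. Pard6a, of the PAR complex, stood at 33.0, 35.2 and 41.5 TPM in the cKO and 8.15, 18.6 and 20.9 TPM in the control (log2 difference 1.24 ± 0.72). Its partner kinase gene Prkcz was the reverse, at 12.3, 17.4 and 7.91 against 19.2, 22.8 and 27.3 TPM (-0.71 ± 0.43). The groups of each did not overlap. Of the 13 tested genes of beta-catenin turnover and its TCF partners 5 were higher and 8 lower, and 0 passed. Gsk3b, a kinase of the destruction complex, stood at 46.3, 39.8 and 45.9 TPM against 49.2, 49.8 and 52.4 TPM. Tcf7l2 ranged from 18.9 to 21.3 TPM in the cKO and from 26.4 to 58.1 TPM in the control. Its groups did not overlap in TPM and did overlap in CPM, where control 1 (31.4) lay below the lowest cKO library (32.2). Tcf7 and Lef1 were at 0 in all 6 libraries.

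Among 11 tested genes tied to connexin trafficking and phosphorylation 7 were higher and 4 lower, and 0 passed. Src, whose kinase phosphorylates the Gja1 product, had 327, 134 and 27 counts in the cKO and 0, 0 and 8 in the control (unadjusted p = 0.054 by edgeR). Of 10 tested cadherin processing genes 4 were higher and 6 lower. Of the 3 tested further cadherins 2 were higher and 1 lower, of the 2 desmosome genes 0 and 2, and of the 2 further connexins and pannexins 1 and 1. None of these passed.

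**Figure D5:**
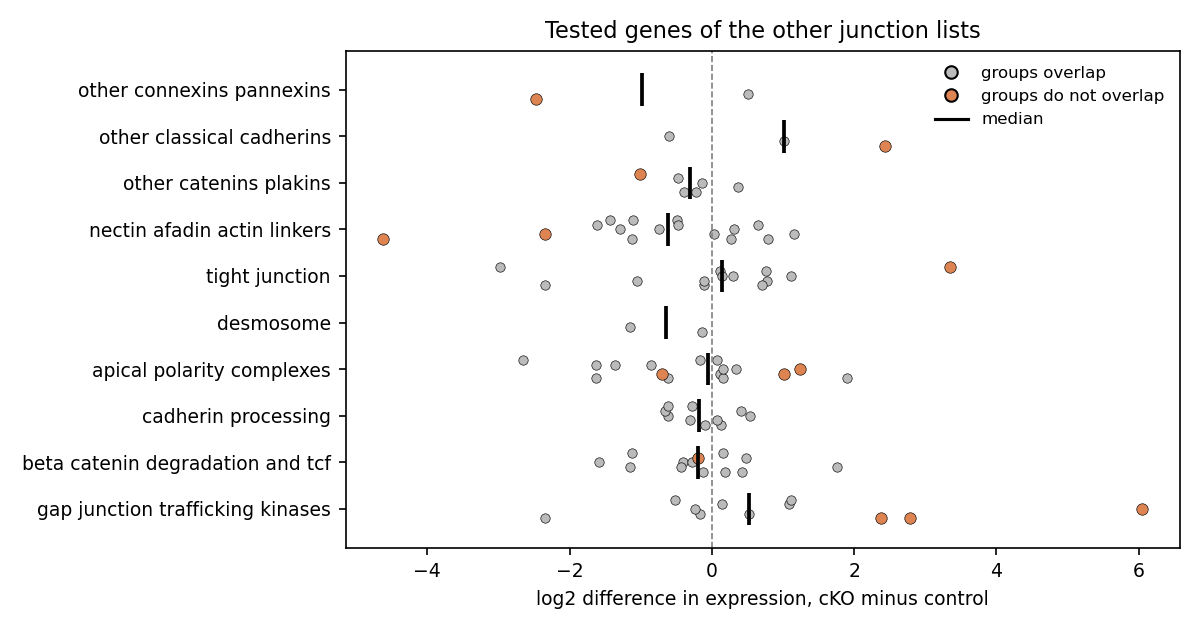
The log2 difference (cKO minus control) of each tested gene in the 10 other junction lists, with the list median as a vertical bar. Orange points are the 13 genes whose groups do not overlap in CPM (7 to the right of 0 and 6 to the left).

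Markers of other cells that carry these junction genes were set beside them. Endothelial markers summed to 0 to 3.83 TPM in the cKO and 0 to 0.0141 TPM in the control, with 7 of 9 at 0 in all libraries, Pecam1 and Cldn5 among them. Of 8 leptomeningeal and fibroblast markers 4 were at 0 throughout (Dcn, Lum, Col3a1 and Slc6a13), and the list summed to 54.5 to 93.4 TPM and 33.3 to 109 TPM, mostly from Igfbp2. Astrocyte and stem cell markers summed to 1408 to 1818 TPM in the cKO and 1409 to 2696 TPM in the control, and 0 of 10 were at 0 throughout. The log2 difference was below 0 for all 8 tested genes of that list (median -0.34), and edgeR called 0 of them, with 0 at an unadjusted p under 0.05. Groups did not overlap for 1 of the 8, beside 9.62% of all genes tested. Of the 12 ependymal markers 4 were higher and 8 lower (median -0.10). Ependymal cells carry several genes of the astrocyte and stem cell list as well, and how much of Gja1 came from other glia was not tested. Neuron and neuroblast markers summed to 8.43 to 18.6 TPM and 9.28 to 28.5 TPM, with Rbfox3 and Slc17a7 at 0 throughout. Choroid plexus markers summed to 316 to 952 TPM and 540 to 741 TPM, with Aqp1 and Slc4a5 at 0 and Folr1 the most abundant. Oligodendrocyte markers summed to 217 to 239 TPM and 111 to 329 TPM (Mog at 0), mural markers to 458 to 512 TPM and 323 to 522 TPM (Kcnj8 and Vtn at 0), and microglial markers to 110 to 146 TPM and 120 to 134 TPM.

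By Pearson correlation of log2 CPM over the 6 libraries, among 3479 other genes that averaged at least 50 CPM, the ones most like Gja1 were S100a16 (r = 0.994), Mut (0.971) and Ift80 (0.969). Those most like Ctnna1 were Ndrg2 (0.9747), Sfxn5 (0.972) and Smarce1 (0.962). S100a16 averaged 390 TPM. These values describe 6 points that share their libraries, and the highest of 3479 correlations over 6 points is high by selection.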

How the data were processed

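Per the submitters' processing notes, reads were handled with CASAVA 1.8, cutadapt 1.11 and kallisto 0.42.5. Genome build, annotation and gene-level summing: not given in the sources used here. Per the file headers, the authors deposited an estimated count and a TPM value for each gene. The estimated counts are unscaled and were rounded to whole numbers here. IDs were matched to GENCODE M21 without version (99.1% matched). The filter filterByExpr kept 11574 of the 19684 genes with a count. After TMM scaling, genotypes were compared by the robust quasi-likelihood test of edgeR 4.0.16 (R 4.3.3) in a model of genotype alone, with Benjamini-Hochberg adjustment over all genes tested. CPM is TMM-scaled. Levels were compared as TPM, order on log2(TPM + 1), and single values by exact two-sided permutation tests over 20 assignments. DESeq2 1.42.0, limma 3.58.1 and other filters and scalings served as alternatives. Named genes were all members, the 3 most abundant and the 2 with the smallest p of each list (a part is given), and the 3 genes most like the leading connexin and catenin. Members and lists were chosen with earlier results of these data known. The test script was checked on simulated counts.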

Additional observations from a re-analysis of the deposited data

How the results depend on the processing

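Of the 10 alternatives for all genes, 8 called 0, while DESeq2 called 198 and a filter at 50 CPM on average called 2. All 10, the replicate block included, and the 6 fits without 1 library called 0 members. Deviations from the group means correlated at 0.008 to 0.0312 between same-numbered libraries and at -0.0247 to 0.007 between differently numbered ones. The same-numbered values were the higher ones, but all were near 0, so the numbers were not taken as pairs. With the replicate block 0 genes were called and Ccn1 stood at -2.27. Ccn1 stayed lower in all 16 (log2 -2.27 to -2.21, and -2.50 to -1.97 without 1 library). Gja1 kept its sign throughout (-0.071 to -0.057, and -0.13 to -0.0014 without 1 library). Leaving out 1 library turned Cdh2 (-1.35 to 0.22), Ctnnb1 (-0.19 to 0.60), Ctnna1 (-0.12 to 0.48), Ctnna2 (-2.32 to 0.34), Ctnnd1 (-0.66 to 3.93) and Ocln (-0.14 to 0.32), and it turned the genotype difference in 2 shares, Cdh2 (-1.89 to 5.10 percentage points) and Ctnna1 (-0.16 to 1.40). The cause was not tested. Over the alternatives that kept all libraries Ctnnd1 ran from 0.023 to 3.201 (the highest with the replicate block), Cdh2 from -1.03 (limma-voom) to -0.30 and Ctnna2 from -1.97 (replicate block) to -0.48. Magi2, nearly at 0 in the cKO, ran from -11.4 (without cKO 2) to -4.04 without 1 library, and Src, nearly at 0 in the control, from 5.06 to 10.4 (without control 3), so their fitted sizes are no estimates of fold. The order steps past 0.05 numbered 0 with log2(TPM + 0.1) and in CPM, and 6 to 9 of the 9 neighbouring pairs kept their order without 1 library, where 5 libraries are too few for the test. For Gjb2, Gjb6, Cdh4 and the delta-catenins libraries of the same group differed by far more than 3 counts at nearly equal depth. The number of genes with a count differed as well, from 12460 in control 1 to 14530 in cKO 2. The cause was not tested.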
